A study of Mus musculus with 16 samples.

Results

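Mgp and Fn1 encode proteins of the extracellular matrix that fibroblasts and vascular cells make, and Islr encodes a secreted or membrane-attached protein of fibroblasts. All 3 were chosen as fibroblast and vascular matrix genes of the contralesional table, with earlier results of these data known. They are 3 of the 417 genes listed there. Both tables of the series together list 661 genes, and none of the 3 is among the 263 of the ipsilesional table. The study sequenced poly(A) RNA of primary motor cortex in C57Bl6 mice that had a stroke, with 16 libraries from the lesioned (ipsilesional) and the opposite (contralesional) hemisphere. Movement was tested on a horizontal rotating beam. The labels put 3 animals (6, 23 and 28) in a spontaneously recovered group and 5 animals (17, 19, 20, 21 and 29) in a non-recovered group. All 8 animals had a stroke, so the comparison is between outcomes and holds no unlesioned control. Titles and description codes disagree on which contralesional library is animal 6 and which is 23. Both are recovered, and the title's number is used for each. The labels name no age, sex, kind of stroke or time after it. The question is whether gene expression opposite the lesion differed with recovery.

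Brain fibroblasts lie in the meninges and along larger vessels, and the parenchyma between them holds few. Their matrix is laid down beside that of pericytes, smooth muscle and endothelium, and after brain injury they contribute to the fibrotic part of the scar. Fn1 encodes fibronectin, a large glycoprotein that integrins bind and that organises other matrix fibres; vascular cells and astrocytes can make it too. Mgp encodes matrix Gla protein, a small vitamin K-dependent protein that keeps vessel walls from calcifying and binds bone morphogenetic proteins. Islr encodes a secreted or membrane-attached protein with leucine-rich repeats and an immunoglobulin domain, also called Meflin, which marks mesenchymal stromal cells and fibroblasts. In bulk tissue, fewer cells of a type and less RNA per cell cannot be told apart.

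All 3 genes are on the minus strand of mm10 and protein-coding. Mgp (ENSMUSG00000030218.2) spans chromosome 6 from 136872435 to 136875823, with 1187 nt covered by exons. Fn1 (ENSMUSG00000026193.15) spans chromosome 1 from 71585520 to 71653200, with 11685 nt in exons. Islr (ENSMUSG00000037206.15) spans chromosome 9 from 58156268 to 58204306, with 2686 nt in exons, and overlaps a second listed gene. That gene is Islr2 (ENSMUSG00000051243.14, chromosome 9, 58196297 to 58204319, minus strand), which encodes a related membrane protein of neurons, also called Linx, that takes part in axon guidance. Of 3 annotated Islr transcripts, 1 starts within the first exon of Islr2, 13 nt from its start, and runs across it. The 181 nt that exons of both genes share are 6.74% of the exonic bases of Islr and 3.06% of those of Islr2. No source used here names the read counter, so how reads over these bases were assigned is unknown and the values of Islr and Islr2 carry that uncertainty. The other two Islr transcripts start 45.1 kb or more beyond the Islr2 start.

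**Figure D1:**
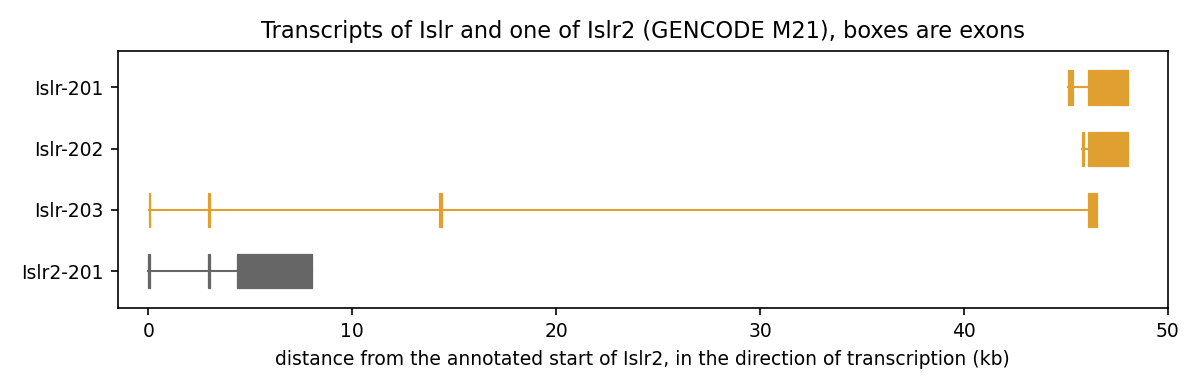
Exons (boxes) of the 3 annotated Islr transcripts and of 1 Islr2 transcript, plotted by distance in kb from the annotated start of Islr2 in the direction of transcription. The Islr transcript in the third row shares its first pair of exons with Islr2, whereas the short Islr transcripts begin 45.1 kb or more downstream.

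The table of RefSeq start regions (GRCm38.p6) matched 1 of the 3 members, Islr, with 1 start, and also held Islr2, with 3 starts. The 250 bases before the Islr start and before the outermost Islr2 start are shown because the genes overlap while their mean differences had opposite signs. The first window is chr9:58158555-58158804, minus strand, in an intron of the longest of the short Islr transcripts, and the second is chr9:58204320-58204569, minus strand, upstream of both genes. Both are written 5′ to 3′, and capitals mark matches to the motifs searched on both strands, the TATA box TATAAA, the Sp1 box GGGCGG, the Tead motif GGAATG, the AP-1 motif TGANTCA and the Smad motif CAGACA, none of which overlapped another here.
Islr: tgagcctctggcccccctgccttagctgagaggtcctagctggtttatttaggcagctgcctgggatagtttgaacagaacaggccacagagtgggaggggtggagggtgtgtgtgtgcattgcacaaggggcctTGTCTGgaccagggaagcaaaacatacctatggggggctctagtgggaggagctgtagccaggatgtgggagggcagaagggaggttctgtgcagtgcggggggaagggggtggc
Islr2: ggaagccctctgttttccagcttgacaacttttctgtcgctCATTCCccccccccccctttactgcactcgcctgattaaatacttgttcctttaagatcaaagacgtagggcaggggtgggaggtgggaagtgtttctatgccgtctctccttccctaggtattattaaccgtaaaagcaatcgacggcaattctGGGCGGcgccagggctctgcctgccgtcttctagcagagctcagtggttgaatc
The Islr window held 1 match, to CAGACA on the reverse strand, and the Islr2 window shown held 2, to GGGCGG and, on the reverse strand, to GGAATG. The windows of the other two Islr2 starts, which are not shown, held 0. Of all 32851 windows of this length, 17.1% held CAGACA, 32.7% GGGCGG and 12.6% GGAATG, and 12.4% held TATAAA and 6.75% TGANTCA, which neither window shown held. A match describes these letters only.

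Levels are given as CPM, the reads of a gene per 1000000 of the total by which its library was scaled, and log2 CPM as deposited. These totals ran from 17972791 in animal 28 to 27895465 in animal 17. Per kb of exonic length, Mgp had the highest level of the 3 members, at 10.5 ± 1.69 CPM per kb (SD, n = 8 libraries). Fn1 followed at 5.38 ± 0.69 and Islr at 4.67 ± 0.86 CPM per kb. Mgp lay above Fn1 in every library, by 1.63 to 2.13 times, and above Islr by 1.77 to 3.04 times. Islr and Fn1 did not keep one order, with Islr at 0.698 to 1.05 times Fn1 per kb. With the longest coding transcript of each gene as its length, Mgp reached 20.3 ± 3.26 CPM per kb, Fn1 7.55 ± 0.97 and Islr 5.64 ± 1.04.

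Mgp was lower in recovered mice in the cortex opposite the lesion. The 3 recovered libraries held 11.3 CPM in animal 6, 10.3 CPM in animal 23 and 9.63 CPM in animal 28. The non-recovered ones held 15.6 CPM in animal 17, 12.9 CPM in 19, 13.3 CPM in 20, 12.8 CPM in 21 and 14.4 CPM in 29. Every recovered library lay below every non-recovered one, and the groups did not overlap. Mean log2 CPM fell from 3.79 ± 0.12 (SD, n = 5) to 3.39 ± 0.11 (SD, n = 3), a log2 fold change of -0.40 ± 0.09 (SE) with a 95% interval of -0.60 to -0.20 (limma, Benjamini-Hochberg adjusted p = 0.0469). The exact permutation test gave p = 0.0179 (2-sided), the smallest that the 56 splits of 3 against 5 allow. Turned back from the log2 scale, this is a fold of 0.757, and the mean CPM was 10.4 ± 0.825 (SD, n = 3) against 13.8 ± 1.18 (SD, n = 5). Mgp had 173 to 434 reads per library, for which counting alone gives an SD of 0.08 log2 units, against 0.11 and 0.12 within the groups.

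In the same fit 33 of 417 genes (7.91%) passed an adjusted p of 0.05, and 25 of them (6.00%) were lower in recovered mice. Mgp was 1 of these 25, and of the 3 members it alone passed. The count of 33 became 77 after quantile normalization (70 higher and 7 lower) and 0 with voom. It was 0, 3, 1, 10 and 74 without animal 17, 19, 20, 21 or 29, and 58, 16 and 6 without animal 6, 23 or 28, so that every library moved it by more than 1.5 times. At an unadjusted limma p under 0.05, voom called 356 genes and the fit without animal 17 called 233. Groups that did not overlap, with recovered mice lower, were found for 25.4% of the listed genes. The authors' table holds genes selected on these libraries by a rule not given here, with 73.4% of them at an unadjusted limma p under 0.05. An adjusted p within it can thus be smaller than over all expressed genes. The exact permutation p and the interval of Mgp rest on the same selected values, so neither is evidence free of that selection. The call for Mgp lay close to the threshold. Its unadjusted limma p was 0.0013. Other listed genes, among them Crispld1 and Cfap65, had the same adjusted p of 0.0469, so this value also depends on the p of other genes. The adjusted limma p was 0.0506 on log2(CPM + 1) and 0.052 with voom. Without the library of animal 17, 19, 20, 21, 23 or 28 it was 0.0552 to 0.0768, and without animal 6 or 29 it was 0.0397 or 0.0406, while the log2 fold change stayed between -0.46 and -0.35.

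**Figure D2:**
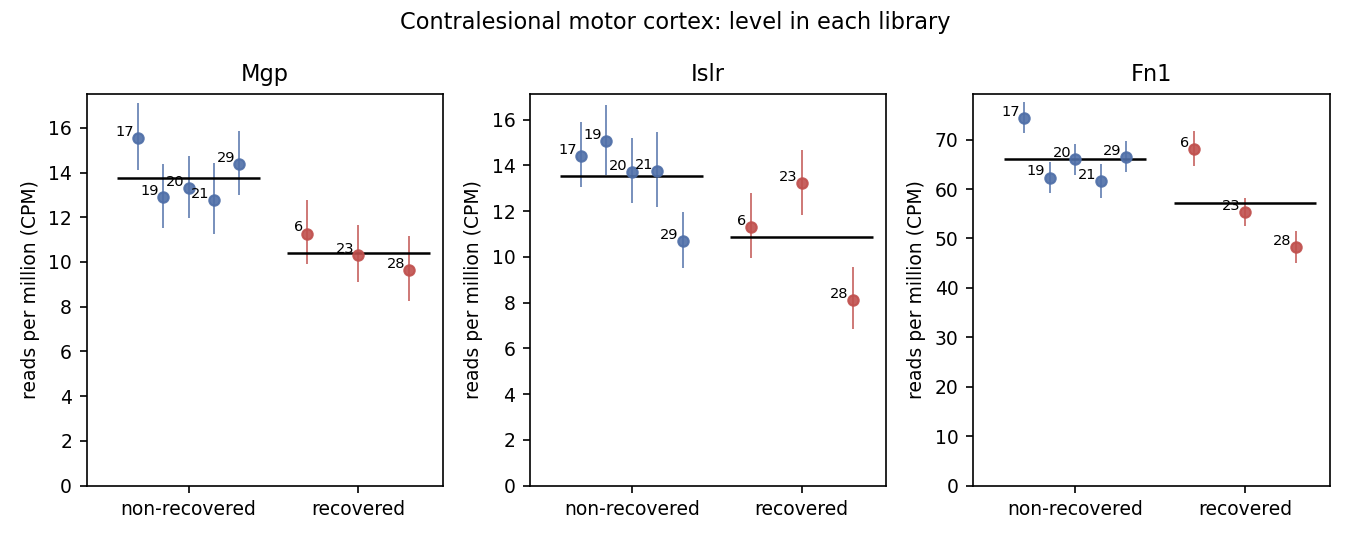
CPM of Mgp, Islr and Fn1 in each contralesional library, with animal numbers, bars for the 95% Poisson interval of the reads (counting error only) and black lines for group means. The recovered Mgp values (9.63 to 11.3 CPM) lie below all non-recovered ones (12.8 to 15.6 CPM), while the groups overlap for Islr and Fn1.

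Islr had a similar mean difference but a wider spread. Recovered libraries held 11.3 CPM in animal 6, 13.2 CPM in animal 23 and 8.12 CPM in animal 28. Non-recovered ones held 14.4 CPM in animal 17, 15.1 CPM in 19, 13.7 CPM in 20, 13.7 CPM in 21 and 10.7 CPM in 29. Animal 28 was the lowest of all, and the non-recovered animal 29 lay below 2 of the 3 recovered animals, so the groups overlapped. Mean log2 CPM was 3.43 ± 0.36 (SD, n = 3) in recovered and 3.76 ± 0.19 (SD, n = 5) in non-recovered mice. The log2 fold change was -0.33 ± 0.16 (SE; 95% interval -0.69 to 0.04; limma adjusted p = 0.0809; exact permutation p = 0.125, 2-sided). The difference did not pass the test, and the interval reaches from no difference to one larger than that of Mgp. Islr had 146 to 402 reads per library, about as many as Mgp, and counting again gives an SD of 0.08 log2 units, below the spread within both groups. Without animal 28 the log2 fold change was -0.13 (limma adjusted p = 0.357), and without animal 23 it was -0.48 (adjusted p = 0.1).

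Fn1 was the most abundant of the 3 in reads and had the smallest mean difference. Recovered libraries held 68.1 CPM in animal 6, 55.3 CPM in animal 23 and 48.2 CPM in animal 28. The non-recovered libraries held 74.4 CPM in animal 17, 62.3 CPM in 19, 66.0 CPM in 20, 61.5 CPM in 21 and 66.5 CPM in 29. Animals 23 and 28 lay below all non-recovered animals, while animal 6 lay above 4 of the 5. Mean log2 CPM was 5.83 ± 0.25 (SD, n = 3) in recovered and 6.05 ± 0.11 (SD, n = 5) in non-recovered mice. The log2 fold change was -0.22 ± 0.11 (SE; 95% interval -0.48 to 0.04; limma adjusted p = 0.0893; exact permutation p = 0.143, 2-sided). With 867 to 2076 reads per library, counting gives an SD of 0.04 log2 units, far below the spread of the recovered group. Without animal 6 the log2 fold change was -0.35 (limma adjusted p = 0.0495), and without animal 28 it was -0.11 (adjusted p = 0.372).

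**Figure D3:**
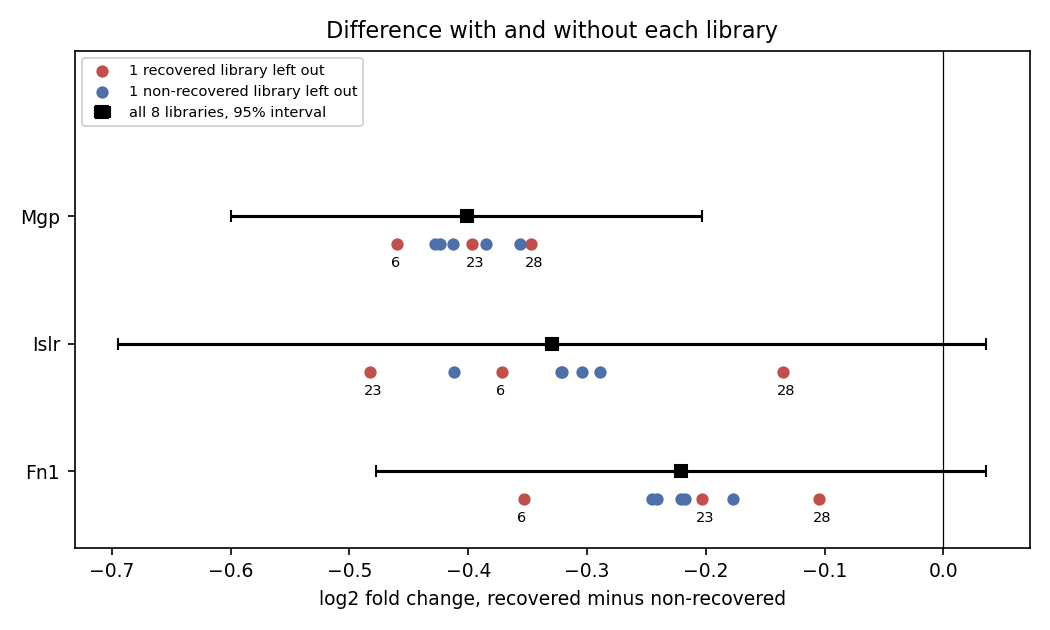
Log2 fold change (recovered minus non-recovered) of each gene with all 8 libraries (square, with the 95% limma interval) and with 1 library left out (points, labelled for the 3 recovered animals). Mgp stays between -0.46 and -0.35, and Islr and Fn1 come closest to 0 without animal 28, at -0.13 and -0.11.

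The mean was lower in recovered mice for 3 of 3 members, as for 64.7% of all 417 listed genes. Their median log2 fold change was -0.33, against -0.19 over all listed genes. The members were chosen with earlier results of these data known, so neither comparison is a test. Ranked from the most lowered, Mgp stood 67th, Islr 104th and Fn1 174th.

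**Figure D4:**
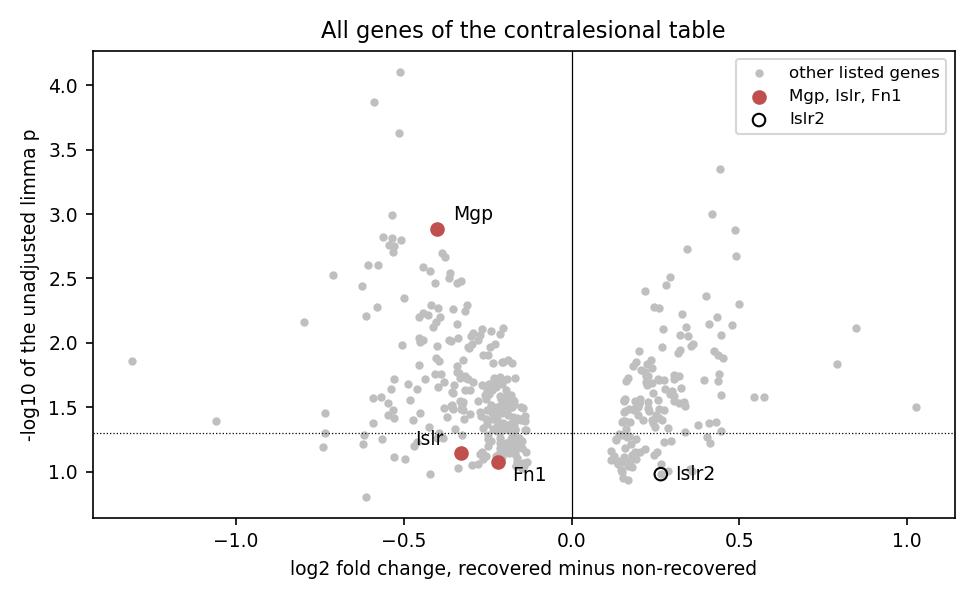
Log2 fold change (recovered minus non-recovered) against -log10 of the unadjusted limma p for the 417 genes of the contralesional table, with the 3 members in red, Islr2 as an open circle and a dotted line at an unadjusted p of 0.05. The lack of genes near 0 shows that the table is a selection; Mgp lies above the line, and Islr, Fn1 and Islr2 lie under it.

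The members differed in how they varied from animal to animal. For this, the mean of the library's own group was subtracted from each log2 CPM value, which removes the group difference. Over the 8 libraries, which share their scaling totals with every gene compared, the deviations of Mgp and Fn1 ran together (Pearson r = 0.89, Spearman rho = 0.95; r = 0.75 without animals 6 and 17, the farthest from the median of Mgp). Those of Islr ran with neither (r = 0.15 with Mgp and 0.38 with Fn1; rho = 0.36 and 0.21). Among 416 other listed genes, Fn1 was the third most like Mgp, and the median gene had r = -0.02 with it. More like Mgp were Perp, a p53 target of cell junctions (r = 0.95), and Pde7b, a cAMP phosphodiesterase (r = 0.94). Most like Fn1 were Kitl, the ligand of the receptor Kit (r = 0.93), Lifr, the receptor of leukaemia inhibitory factor (r = 0.91), and Mgp. Most like Islr were Kctd11 (r = 0.91), the ephrin receptor gene Epha8 (r = 0.90) and the asparagine synthetase gene Asns (r = 0.88). Without animals 28 and 29, the farthest for Islr, r was 0.36 for Kctd11 and 0.12 for Epha8, so both rest on these libraries, and 0.87 for Asns. Values of r are descriptions over 8 libraries, the highest chosen out of 416.

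Islr2 deviated the opposite way to Mgp and Fn1. Its deviations had r = -0.92 with Mgp and -0.96 with Fn1 (rho = -0.93 and -0.98), in both cases the lowest but one of 416 genes, and r = -0.13 with Islr. Without the 2 farthest libraries r was -0.85 with Mgp and -0.94 with Fn1. Recovered libraries held 56, 75.5 and 83.6 CPM of Islr2 in animals 6, 23 and 28. Non-recovered ones held between 49.8 CPM in animal 17 and 68.2 CPM in animal 19, with a log2 fold change of 0.27 ± 0.15 (SE, limma adjusted p = 0.105). Animals 6 and 17, with the most Fn1 of their groups, had the least Islr2, and animal 28, with the least Fn1, had the most Islr2.

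**Figure D5:**
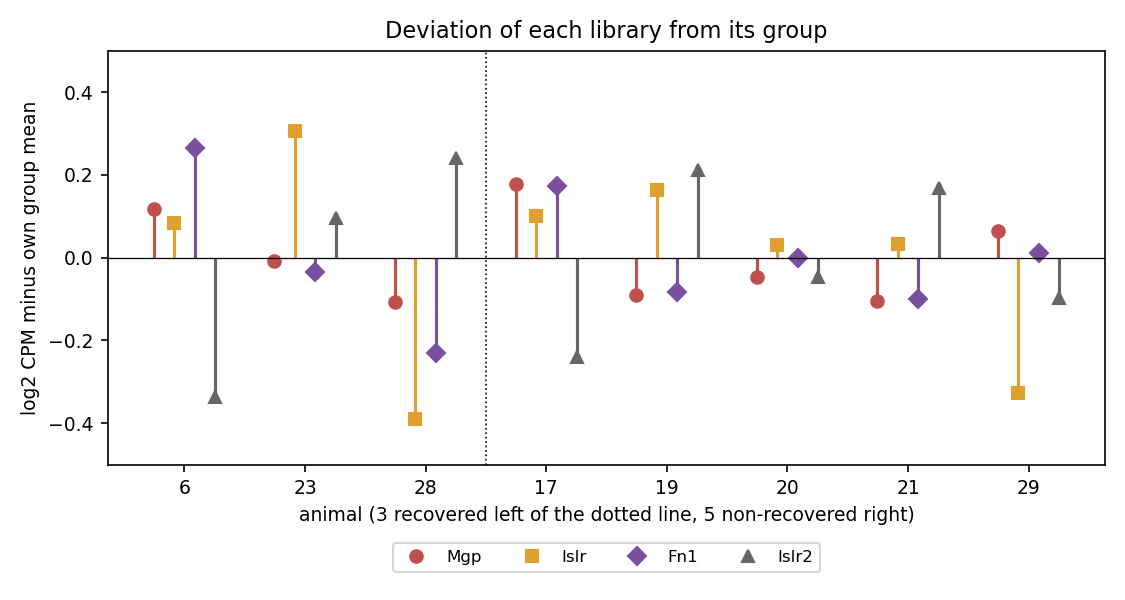
Log2 CPM of Mgp, Islr, Fn1 and Islr2 in each library minus the mean of its own group, by animal. Mgp and Fn1 lie on the same side of 0 in all animals but their size differs, Islr2 lies opposite them in all animals except 20, and Islr is lowest in animals 28 and 29.

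The ratio of 2 genes within a library does not depend on the library's total. It was taken from the deposited log2 CPM, which includes added reads, with no length correction. On this scale Mgp came to 16.7% of Fn1 in animal 6, 18.8% in animal 23 and 20.1% in animal 28. In non-recovered animals it came to between 20.3% in animal 20 and 21.7% in animal 29. The groups did not overlap, although animals 28 and 20 lay next to each other. The mean log2 ratio was -2.44 ± 0.14 (SD, n = 3) in recovered and -2.26 ± 0.04 (SD, n = 5) in non-recovered mice, a difference of -0.18 (exact permutation p = 0.0179, 2-sided, the smallest possible; 0.0536 adjusted over the 3 pairs). Without animal 6 the difference was -0.11. Both genes were selected on these libraries, so the exact permutation p of their ratio is limited by that selection too. Neither Mgp over Islr (difference -0.07, exact permutation p = 0.75, adjusted 0.75) nor Islr over Fn1 (-0.11, exact permutation p = 0.589, adjusted 0.75) differed beyond the spread between libraries.

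Gene length moved with the groups in this table, and the members span short to long genes. With each gene centred on its mean across the 8 libraries, log2 CPM sloped with exonic length, by -0.02 per doubling in animal 6, -0.11 in animal 23 and -0.04 in animal 28. The 5 non-recovered slopes were 0.02 to 0.04. Centring makes the slopes balance across libraries, so the steep slope of animal 23 raises those of the others. The trend was fitted on genes selected on these libraries, so removing it can also take away or add group difference. With this trend removed from each library, the log2 fold change was -0.59 for Mgp, the shortest member (limma adjusted p = 0.0175), -0.41 for Islr (adjusted p = 0.0763) and -0.11 for Fn1, the longest (adjusted p = 0.391). For Mgp the difference was larger without the trend, and for Fn1 it was about as large as without animal 28. The library of animal 23 had the steepest trend, and its description code starts unlike the 7 others on this side. Without it the log2 fold changes were -0.40 for Mgp, -0.48 for Islr and -0.20 for Fn1.

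Of the genes written out as matrix lists for this comparison, few were in the table, and matrix genes outside those lists are not counted here. Of 46 genes on the list of further matrix proteins, the table held Crispld1 and Islr2. Islr2 was on that list although it encodes the neuronal membrane protein described above. Crispld1, a secreted protein, had a lower mean in recovered mice (-0.61 ± 0.15 SE, limma adjusted p = 0.0469). Like every listed gene, it did not pass with voom or without animal 17. Of matrix enzymes and inhibitors it held Mmp2, a gelatinase, with a log2 fold change of 0.43 ± 0.18 (adjusted p = 0.0625) and 24 to 51 reads per library. Of BMP and TGF-beta genes it held Smad3, which carries TGF-beta signals to the nucleus, with -0.19 ± 0.08 (adjusted p = 0.0662). No collagen, basement membrane, fibronectin receptor or Gla protein gene of the lists was listed, and these were not analysed here.

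Defining fibroblast genes could not be set beside the members. Of 22 fibroblast and meningeal genes on the list, 3 were listed, the members themselves, and of 12 mural genes 0, so that the cell type behind the 3 transcripts was not checked here. Their summed level was 66 to 90.7 CPM in recovered and 88.1 to 104 CPM in non-recovered libraries. The endothelial list had 1 of 11 genes, the kinase gene Bmx, at 1.36 to 1.5 CPM in recovered and 0.729 to 1.29 CPM in non-recovered libraries. Bmx, with 20 to 37 reads per library, had a log2 fold change of 0.44 ± 0.15 (SE, limma adjusted p = 0.0576). Another 9 endothelial genes outside that list were picked after their values were seen, so their count is no test. All 9 had lower means in recovered mice, as did 64.7% of all listed genes. Their median log2 fold change was -0.31, against -0.19 over all listed genes. Of the 9, 1 passed the adjusted limma p of 0.05, against 7.91% of all listed genes. The choroid plexus and ependyma list had 1 of 6 genes, the cilium gene Cfap65, at 1.32 to 1.84 CPM in recovered and 0.98 to 1.12 CPM in non-recovered libraries. Cfap65 had a higher mean in recovered mice (log2 fold change 0.49 ± 0.11 SE, limma adjusted p = 0.0469), with 23 to 47 reads per library. Like every listed gene, it did not pass with voom or without animal 17. Of cortical neuron genes 1 of 11 was listed, the interneuron peptide gene Sst, at 114 to 132 CPM and 108 to 118 CPM. The last 2 lists had more than 1 gene, with ranges that overlap for the first and do not for the second. The beta-globin genes Hbb.bs and Hbb.bt, from blood, summed to 6.27 to 12.4 CPM in recovered and 3.01 to 6.85 CPM in non-recovered libraries. The 10 listed genes of striatal projection neurons summed to 210 to 232 CPM and 254 to 307 CPM. Their part in the difference of Mgp was not tested.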

How the data were processed

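RNA was extracted with Trizol and an RNeasy kit (RNA integrity number 7 to 9) and made into stranded poly(A) libraries, per the labels' protocols. Tools listed without a role in the submitters' processing notes are Trimmomatic 0.38, STAR 2.5.1b, bcl2fastq and edgeR, with the build mm10. The authors deposited log2 CPM per library for selected genes, 1 table per hemisphere. Taking each deposited log2 value as reads with 2 added, over a library total, 100% of values came out whole within 0.01. That total may include a normalization factor. Groups come from the sample titles. Recovered and non-recovered libraries were compared with limma 3.58.1 (R 4.3.3), run on the values as deposited with no filter and adjusted over all 417 genes. Single values were compared by exact permutation of the libraries. The fit was also tested on simulated reads with known changes. These were drawn with the same dispersion for every gene and without selection, so that test gives no error rate for these selected genes. Gene models are GENCODE M21 (GRCm38), which matched 415 of 417 symbols. The members, lists and motifs were chosen with earlier results of these data known. Named genes are the members, the 3 listed genes most like each, and listed members of the lists. Alternatives were another pseudocount, a CPM filter, quantile normalization, voom, a length trend, library weights and each library left out.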

Additional observations from a re-analysis of the deposited data

Results flagged for a closer look

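Islr in the non-recovered animal 29 stood apart from the other 4 non-recovered libraries, at 3.43 log2 CPM against 3.79 to 3.92. Its gap to the next library was 0.729 of the group's range, above the Dixon limit of 0.71 for 5 samples. Of 4 genes tested in this way (the 3 members and Islr2) it was the only one. Chance flags about 1 in 20 of the groups tested, so that over 4 tests 1 flag is less rare than that. Without this library the log2 fold change of Islr was -0.41 (limma adjusted p = 0.0656).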

How the results depend on the processing

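All 15 alternatives kept the log2 fold changes of Mgp, Islr and Fn1 below 0. Mgp passed the adjusted limma p of 0.05 in 6 of them, Islr in 0 and Fn1 in 1. Mgp missed it on log2(CPM + 1) (-0.37), with voom (-0.40) and, in a fit added after seeing the data, without animals 28 and 29 together (-0.33). Mgp also missed this limit in each fit that left out animal 17, 19, 20, 21, 23 or 28 alone. With 1 library left out, Mgp ranged from -0.46 to -0.35, Islr from -0.48 to -0.13 and Fn1 from -0.35 to -0.11. The count of 33 genes past the threshold became 3 on log2(CPM + 1), 0 with voom, 77 after quantile normalization (70 higher and 7 lower, against 8 and 25), 72 with the length trend removed, 53 with library weights and 18 without animals 28 and 29; it ranged from 0 to 74 with 1 library left out, from 0 without animal 17 to 74 without animal 29. At an unadjusted limma p under 0.05, voom called 356 genes and the fit without animal 17 233. The cause was not tested. Quantile normalization moved the median log2 fold change of all genes from -0.19 to -0.11, Fn1 to -0.12 (adjusted p = 0.32) and Islr to -0.29. No paired analysis was possible because the recovered and non-recovered groups share no animal number, and the members are not in the ipsilesional table. Reads of 173 to 434 per library limit the precision of Mgp. Counting alone gives it an SD of 0.08 log2 units, against 0.11 and 0.12 within the groups. For Islr, with 146 to 402 reads, the SD within the groups (0.36 and 0.19) was further above the 0.08 that counting gives.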

Other observations

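Other vascular and matrix genes in the contralesional table were picked by symbol after its values had been seen, so they carry no test as a group. They leave out the endothelial gene Bmx (0.44) and the gelatinase gene Mmp2 (0.43), described above and both higher in recovered mice. Of the 19 genes picked, 18 were lower in recovered mice, against 64.7% of all listed genes, with a median log2 fold change of -0.31 against -0.19. Of them 1 passed the adjusted limma p of 0.05, against 7.91% of all listed genes. The 9 endothelial genes picked were lower, unlike Bmx. Ehd2, which shapes caveolae, had a lower mean in recovered mice (-0.41 ± 0.10 SE, limma adjusted p = 0.0469). Like every listed gene, it did not pass with voom or without animal 17. The heat shock family gene Hspa12b had a log2 fold change of -0.31 ± 0.09 (adjusted p = 0.0519). The 4 genes of smooth muscle and pericytes were lower too. Among them Myl9, a smooth muscle myosin light chain, had -0.34 ± 0.11 (adjusted p = 0.0569). Its groups did not overlap, which held for 1 of these 4 genes. Of all listed genes, 25.4% had groups that did not overlap with recovered mice lower. Of the 6 genes picked for matrix assembly and turnover 5 were lower, including P3h2, a collagen prolyl hydroxylase (-0.43 ± 0.12, adjusted p = 0.0519). Creb3l1, a transcription factor of collagen secretion, had a higher mean in recovered mice, as Mmp2 did, at 0.42 ± 0.13 (adjusted p = 0.0535).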
